A study of Mus musculus with 6 samples.

Results

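The genes described here serve the display of cell-internal peptides on major histocompatibility complex (MHC) class I: the light chain B2m, the heavy chains H2-K1, H2-D1 and H2-T23, the peptide loading genes Tap1, Tap2 and Tapbp, and the immunoproteasome subunits Psmb8, Psmb9 and Psmb10. Every probe of the non-normalized bead array table whose symbol column equals one of these 10 names was taken, which gave 20 of the 45281 probes, for 10 of the 30869 symbols. The genes were grouped after their levels on these arrays had been seen, so the contrast between the groups is given for them as a description, without a test. The RNA came from whole adrenal glands of adult virgin female B6.FVB mice. 3 samples are labelled Gata6 knockout (cKO) and 3 are labelled normal, the control. Gata6 encodes a transcription factor of the adrenal cortex, and the series compares adrenal transcripts with and without it. The sources used here name neither the Cre driver of the conditional deletion nor the number of animals behind a sample, so p-values reflect only how these samples vary, and that variation may be technical.

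2 facts about the arrays come before the results. The Gata6 probe did not read lower on the arrays labelled cKO. Its log2 signals were 11.99, 12.06 and 12.31 on those arrays, against 11.80, 11.66 and 11.71 on the control arrays, a difference of 0.40 (SE 0.10, limma adjusted p = 0.0545). Without cKO replicate 1 the adjusted p was 0.0450, and over all alternative settings it ranged between 0.0330 and 0.275. No source used here says which part of the gene this probe reads, so its signal does not check the deletion, and the labels are used as given. Second, cKO replicate 1 stood apart from the other 5 arrays: 127 probes read at least 1 log2 unit above all other arrays there, against 32 and 5 on cKO replicates 2 and 3 and 31, 17 and 28 on control replicates 1, 2 and 3. Of those 127 probes, 16 belonged to the class I group, and none of its probes stood out in that way on another array. The levels of the class I, loading and immunoproteasome genes are therefore given array by array. The 6 arrays detected between 18314 and 19459 probes each.

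**Figure D1:**
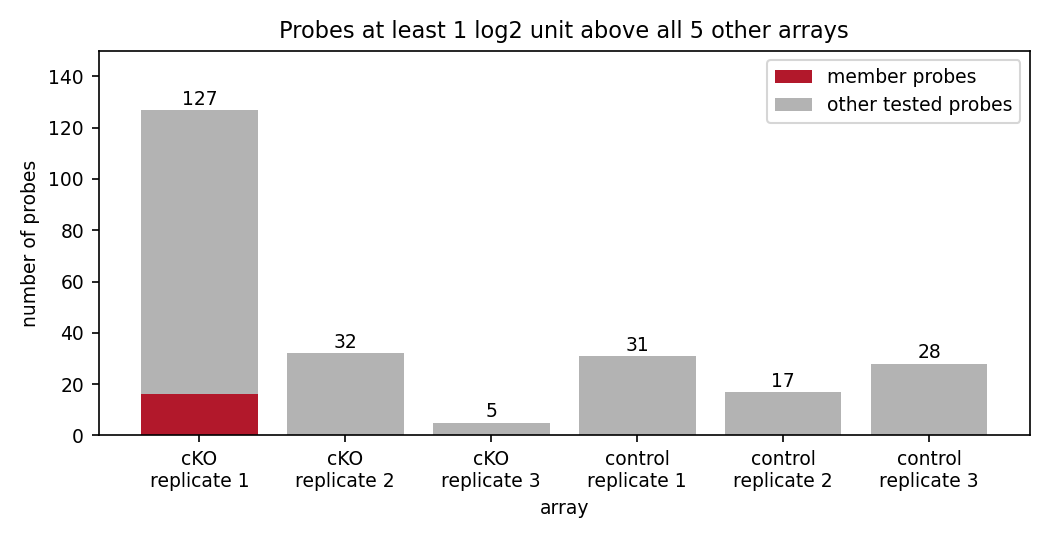
Number of tested probes (y axis) that read at least 1 log2 unit above all 5 other arrays, for each array (x axis). Red marks class I, loading and immunoproteasome probes and grey all others. cKO replicate 1 holds 127 such probes, 16 of them red, and no other array holds a red one.

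As background, nearly all nucleated cells degrade part of their proteins in the proteasome and show the resulting peptides on class I molecules to CD8 T cells. A class I molecule is a heavy chain bound to beta-2 microglobulin, the product of B2m. H2-K1 and H2-D1 encode classical heavy chains, and H2-T23 encodes Qa-1, a non-classical chain that engages CD94/NKG2 receptors of NK cells. Tap1 and Tap2 form the transporter that carries peptides into the endoplasmic reticulum, and tapasin, the product of Tapbp, bridges the transporter to the empty class I molecule. Psmb8, Psmb9 and Psmb10 replace the catalytic subunits encoded by Psmb5, Psmb6 and Psmb7 in the immunoproteasome. Interferon gamma is the best known inducer of all these genes, with Irf1 among the factors that act on them, and Nlrc5 is the transactivator of class I genes.

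The class I, loading and immunoproteasome genes were high together on 1 array. All 18 member probes that passed the detection filter (detection p under 0.05 on at least 3 arrays) were highest on cKO replicate 1, by 0.82 to 3.12 log2 units over the next array. Against the mean of the control arrays, the median over the 18 probes was 2.21 on cKO replicate 1, -0.06 on cKO replicate 2 and -0.01 on cKO replicate 3. Over all 19210 tested probes the same medians were -0.03, -0.01 and -0.02. The median cKO minus control difference of the 18 probes was 0.60, with all 18 above 0, and without cKO replicate 1 it was -0.03, with 7 above 0 and 11 below. The cKO arrays thus spread by an SD of 0.54 to 1.98 for single probes, against 0.03 to 0.60 over the control arrays. 2 of the 20 probes were not tested: the third B2m probe was detected on no array, and the third H2-D1 probe on 1 control array.

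None of the 18 tested member probes passed the limma test at an adjusted p of 0.05, where 6.49% of all tested probes did, 3.92% as higher and 2.57% as lower. 1 member probe had an unadjusted p under 0.05. Counts at that unadjusted threshold, here and below, are given without the share of all probes, so they show no excess. The count was 0 under each of the 14 alternative settings that were run. Without cKO replicate 1, 6.49% of the 18682 tested probes were called, and again none of the 18. The cKO and control arrays did not overlap, with the cKO arrays higher, for 2 of the 18 probes, the first B2m probe and the first Tapbp probe, where 13.2% of all tested probes showed that order. The opposite order was shown by none of the 18 and by 15% of all tested probes. These contrasts chose the group, so the counts describe it only. In whole-gland RNA, more cells of a type and more RNA per cell cannot be told apart.

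**Figure D2:**
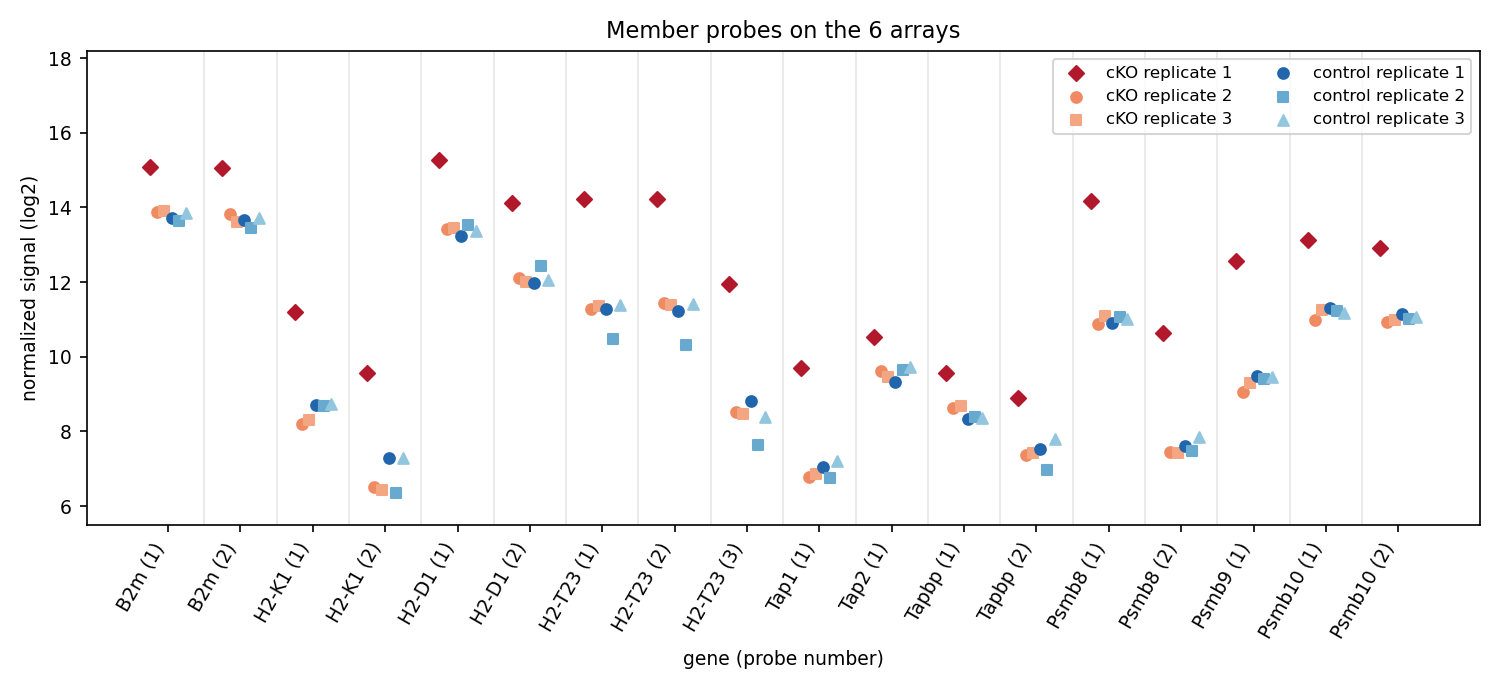
Normalized log2 signal (y axis) of each of the 18 tested probes (x axis, gene and probe number) on the 6 arrays, 1 point per array, with cKO arrays (red and orange) left of control arrays (blue). cKO replicate 1 (diamonds) lies above the other 5 arrays for all 18 probes, by 0.82 to 3.12 log2 units.

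The light chain and the heavy chains are taken first. B2m read 15.09, 13.88 and 13.91 on cKO replicates 1, 2 and 3, against 13.72, 13.64 and 13.86 on control replicates 1, 2 and 3 (log2 signal, first probe). Only cKO replicate 1 was far from the control arrays, at 2.56-fold their mean, and the second B2m probe gave 2.72-fold. In the order of all 45281 signals on an array, the first B2m probe stood at rank 63 on cKO replicate 1 and at ranks 288 to 370 on the other arrays, so this gene started near the top of the scale. H2-D1 did too: its first probe read 15.27, 13.42 and 13.46 on the cKO arrays, against 13.23, 13.52 and 13.37 on the control arrays. cKO replicates 2 and 3 lay within the control range, and cKO replicate 1 was 3.73-fold above the control mean on this probe and 3.87-fold on the second.

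H2-K1 read 11.19, 8.21 and 8.31 on the cKO arrays, against 8.72, 8.69 and 8.74 on the control arrays (first probe). Here the cKO arrays lay on both sides of a narrow control range, with cKO replicate 1 5.56-fold above its mean and the other 2 cKO arrays below all 3 control arrays. Without cKO replicate 1 the first H2-K1 probe differed by -0.46 and the second by -0.51 (cKO minus control). The second probe read 7.29, 6.35 and 7.28 on the control arrays, a range that holds cKO replicates 2 and 3. H2-T23 had the largest excess of the group. Its 3 probes were 9.11-fold, 9.45-fold and 12.6-fold above the control mean on cKO replicate 1.

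The first H2-T23 probe, the brightest of the 3 on average, read 14.23, 11.28 and 11.35 on the cKO arrays, against 11.29, 10.47 and 11.38 on the control arrays. cKO replicate 1 was apart at the top, and control replicate 2 was the lowest array on all 3 H2-T23 probes. The H2-T23 difference of 1.24 on this probe was 0.27 without cKO replicate 1. The class I heavy chain genes are close relatives, and the probe sequences were not used here, so a signal filed under H2-K1, H2-D1 or H2-T23 may include RNA of another class I gene.

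The promoters of the light chain and of both classical heavy chains are shown because class I genes are known to share control elements there. RefSeq start windows (build GRCm38.p6, 250 bases before to 50 after the annotated start, written 5′ to 3′ on the gene's strand) matched 9 of the 10 genes, with no window for Tap2. Capitals mark matches to the interferon-response letters AANNGAAA, to the kappaB consensus, and to TGACG followed 15 to 25 bases later by ATTGG, a simplified form of the spaced class I module. The windows are chr2:122147437-122147736 on the plus strand for B2m, chr17:34000298-34000597 on the minus strand for H2-K1, the first of its 2 windows, and chr17:35262844-35263143 on the plus strand for H2-D1.
B2m: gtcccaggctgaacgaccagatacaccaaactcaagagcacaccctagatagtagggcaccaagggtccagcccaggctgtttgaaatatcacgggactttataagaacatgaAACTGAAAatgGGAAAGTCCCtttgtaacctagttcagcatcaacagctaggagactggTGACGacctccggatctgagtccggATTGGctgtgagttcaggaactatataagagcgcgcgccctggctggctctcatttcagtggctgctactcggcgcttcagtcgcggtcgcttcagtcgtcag
H2-K1: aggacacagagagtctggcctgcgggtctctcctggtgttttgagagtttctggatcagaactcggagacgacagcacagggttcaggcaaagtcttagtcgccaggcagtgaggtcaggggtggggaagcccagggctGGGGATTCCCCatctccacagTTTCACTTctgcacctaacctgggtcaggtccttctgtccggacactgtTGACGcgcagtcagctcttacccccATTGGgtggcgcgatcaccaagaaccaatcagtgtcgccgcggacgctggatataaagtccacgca
H2-D1: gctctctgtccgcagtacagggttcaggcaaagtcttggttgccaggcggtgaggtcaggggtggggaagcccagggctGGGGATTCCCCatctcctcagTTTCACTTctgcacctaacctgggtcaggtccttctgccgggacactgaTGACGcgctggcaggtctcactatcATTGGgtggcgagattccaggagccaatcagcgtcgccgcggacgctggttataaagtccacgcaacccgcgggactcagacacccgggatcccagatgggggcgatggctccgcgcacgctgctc

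Of the 9 genes with a window, only these 3 hold the TGACG and ATTGG pair, with 20 bases between, against 0.435% of the 32851 windows in the table. The same 3 of 9 hold the kappaB consensus, against 8.46% of all windows. These 3 genes were high on cKO replicate 1 by unequal amounts, and members without the pair were high too. H2-T23, Psmb8, Psmb9, Tap1, Psmb10 and Tapbp were 3.19, 3.17, 3.11, 2.70, 1.89 and 1.22 above the control mean there (first probes). A link of motif and level was not tested. AANNGAAA was found in 4 of the 9 genes with a window, namely B2m, H2-K1, H2-D1 and H2-T23, against 23.9% of all windows. Both strands were searched for each of these motifs, the TGACG and ATTGG pair included. The kappaB matches of H2-K1 and of H2-D1 are each a pair shifted by 1 base and read on both strands, and matches to different motifs do not overlap. A match is a description of these letters and not a measured site.

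The peptide transporter and its bridge followed, with a wide range. Tap1 read 9.70, 6.78 and 6.85 on the cKO arrays, against 7.06, 6.74 and 7.20 on the control arrays. cKO replicate 1 was 6.49-fold above the control mean for Tap1, and the other 2 cKO arrays lay within the control range. Tap2, the partner subunit, read 10.54, 9.62 and 9.46 on the cKO arrays, against 9.32, 9.63 and 9.71 on the control arrays. Its excess on cKO replicate 1 was the smallest of the 10 genes, at 1.97-fold, and it is the only member below 1 log2 unit over the control mean there. Tapbp read 9.58, 8.61 and 8.69 on the cKO arrays, against 8.32, 8.38 and 8.35 on the control arrays (first probe). All 3 cKO arrays were above all 3 control arrays on that probe, by 0.30 on average without cKO replicate 1. The second Tapbp probe did not share that order: cKO replicates 2 and 3 read 7.36 and 7.42, between control values of 6.96 and 7.79.

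The immunoproteasome subunits were high together. Psmb8, which encodes the chymotrypsin-like subunit, read 14.16, 10.88 and 11.10 on the cKO arrays, against 10.90, 11.06 and 11.00 on the control arrays (first probe). The other 5 arrays differed from each other by at most 0.22, and cKO replicate 1 was 9.01-fold above the control mean. Its place in the order of all signals was rank 228 on cKO replicate 1 and ranks 2511 to 2856 on the others. Psmb9, which replaces Psmb6, read 12.56, 9.06 and 9.30 on the cKO arrays, against 9.49, 9.41 and 9.47 on the control arrays. It was 8.62-fold above the control mean on cKO replicate 1 but below all 3 control arrays on cKO replicates 2 and 3. Psmb10, which replaces Psmb7, read 13.12, 10.99 and 11.24 on the cKO arrays, against 11.31, 11.23 and 11.18 on the control arrays (first probe). Its 2 probes were 3.70-fold and 3.61-fold above the control mean on cKO replicate 1, a smaller excess than that of Psmb8 or Psmb9 on the same array.

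Tap1 and Psmb9 lie head to head, and their windows share 275 of 300 bases on opposite strands, so 1 sequence shows both starts. Psmb8 lies in the same cluster. In the sequences below, capitals mark the letters TTCNNNGAA, which read the same on both strands. Only the Psmb8 window holds them among the 9 genes, against 8.3% of all windows, and the Tap1 window holds none of the motifs searched. The windows, both on the plus strand of GRCm38.p6, are chr17:34187306-34187605 for Tap1 and chr17:34197945-34198244 for Psmb8.
Tap1: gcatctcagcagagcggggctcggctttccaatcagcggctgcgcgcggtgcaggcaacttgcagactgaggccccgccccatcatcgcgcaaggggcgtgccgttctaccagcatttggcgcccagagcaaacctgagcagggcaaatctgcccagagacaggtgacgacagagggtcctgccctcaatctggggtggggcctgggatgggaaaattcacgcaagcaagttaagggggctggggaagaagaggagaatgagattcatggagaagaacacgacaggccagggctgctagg
Psmb8: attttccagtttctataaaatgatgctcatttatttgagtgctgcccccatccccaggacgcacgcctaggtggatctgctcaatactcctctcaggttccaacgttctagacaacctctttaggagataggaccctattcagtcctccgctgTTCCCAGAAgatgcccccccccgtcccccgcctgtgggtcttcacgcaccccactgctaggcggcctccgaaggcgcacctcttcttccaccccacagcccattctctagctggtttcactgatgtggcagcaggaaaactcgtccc
Tap1 and Psmb9, which share this window, exceeded the control mean on cKO replicate 1 by 2.70 and 3.11 log2 units. No match says only that those letters are not in these 300 bases.

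The constitutive proteasome subunits that Psmb8, Psmb9 and Psmb10 replace were not high on cKO replicate 1. Psmb6 exceeded the control mean by 0.05 on that array and Psmb7 by -0.11. Psmb5 read 9.04, 8.83 and 9.04 on the cKO arrays, against 11.11, 10.61 and 8.87 on the control arrays. All 3 cKO arrays sat with control replicate 3, and the difference of -1.23 did not pass the test (SE 0.47, limma adjusted p = 0.166), and was -1.27 without cKO replicate 1. Without control replicate 3 the Psmb5 difference was -1.89, with a limma adjusted p of 0.00186. Of the 11 tested constitutive core genes, none was at least 1 log2 unit above the control mean on cKO replicate 1. None of the 11 passed the limma test, and 1 had an unadjusted p under 0.05. Psme1 and Psme2, which encode the interferon-inducible activator cap PA28, were on cKO replicate 1 above the control mean by 0.51 and 0.21, and their list of activator and assembly genes had a median of 0.00 there. The list of loading chaperones and trimming peptidases had a median of -0.07 there over 8 tested genes, of which 5 are peptidases. Its 3 tested chaperones were all above the control mean on cKO replicate 1: the disulfide isomerase Pdia3 by 0.06, calreticulin (Calr) by 0.29, and Tapbpl, which encodes the tapasin-related protein TAPBPR, by 1.57. None of the 8 passed the limma test, and 2 had an unadjusted p under 0.05.

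Other genes of the same pathway were taken from 9 lists of 138 genes, of which 127 were on the array and 95 were tested. None of the 95 rose and 1 fell in the limma test, against 6.98% of all genes called in either direction. 12 of the 95 had an unadjusted p under 0.05. The share of all genes at that threshold is not given here and is at least the 6.98% called. The gene that fell was H2-M2, a non-classical class I gene, by 1.73 on the log2 scale (adjusted p = 0.0448). With all arrays kept, the call was lost under a robust variance (adjusted p = 0.0944), where Ifit2, an interferon-induced gene, was called instead, and with a normexp offset of 50 (0.0589). It was also lost without any one array except control replicate 2: the adjusted p was 0.0576, 0.143 and 0.140 without cKO replicates 1, 2 and 3, and 0.0887 and 0.0565 without control replicates 1 and 3. On cKO replicate 1, 6 of the 14 other tested class I list genes were at least 1 log2 unit above the control mean. The list includes H2-Ke6, which carries an H2 name but encodes a hydroxysteroid dehydrogenase, at -0.28. The highest of the list were H2-Q6 at 3.76, H2-Q8 at 3.35, H2-Q5 at 3.19, H2-Q7 at 2.94 and H2-M3 at 2.05. On cKO replicates 2 and 3, none of the 95 genes was that high.

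Regulators of the class I genes were mixed on cKO replicate 1. Irf1, a factor that binds the interferon-response letters, was 2.01 above the control mean. Irf1 read 12.48, 10.80 and 10.81 on the cKO arrays, against 10.70, 10.44 and 10.27 on the control arrays. Its 3 cKO arrays were all above its 3 control arrays, an order shown by 13.2% of all tested probes. The difference of 0.90 did not pass the test (SE 0.40, limma adjusted p = 0.222), and was 0.34 without cKO replicate 1. A second tested Irf1 probe showed the same order by a narrow margin. Its lowest cKO value was 9.80, on cKO replicate 3, and its highest control value 9.78, on control replicate 1. On the remaining 2 tested Irf1 probes the groups overlapped. Nlrc5, the class I transactivator, read 8.40, 5.10 and 5.31 on the cKO arrays, against 5.06, 5.06 and 5.08 on the control arrays. Nlrc5 was detected on cKO replicates 1 and 3 only and was not tested. As its control signals were not well above background, its cKO mean is given as at least 2.08-fold higher, a bound that cKO replicate 1 sets. In all, 4 of the 16 tested regulators were at least 1 log2 unit above the control mean on cKO replicate 1, with a list median of 0.07. Ifng, which encodes interferon gamma itself, was detected on 1 cKO and 1 control array.

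The lists of other interferon-inducible genes were high on the same array. The 8 tested interferon-inducible GTPases, which act in cell-autonomous defence, had medians of 2.82, -0.13 and -0.04 over the control mean on cKO replicates 1, 2 and 3. Igtp at 3.69 and Irgm2 at 3.18 were among them, and the brightest, Irgm1, was at 1.48 on cKO replicate 1. The 14 tested type I interferon-response genes had medians of 1.12, -0.05 and 0.17 on cKO replicates 1, 2 and 3. The brightest of them, Dhx58, was at -0.10 on cKO replicate 1. MHC class II, which displays peptides of taken-up proteins, had list medians of 2.18, 0.15 and 0.29 over 12 tested genes. For H2-Ab1, H2-Eb1, H2-DMb2 and Cd74 of that list, all cKO arrays were above all control arrays, an order shown by 13.2% of all tested probes. Without cKO replicate 1 they differed by 0.61, 0.70, 0.33 and 0.46, and none was called. Control replicate 2 was the lowest control array for these genes, at -0.53, -0.67, -0.13 and -0.27 from the control mean. For the other tested class II genes the groups overlapped. The class II transactivator Ciita was 2.87 above the control mean on cKO replicate 1. Cxcl9, a chemokine that draws T cells, was 3.11 above it, in a list whose 3 tested genes, the chemokines Cxcl9 and Ccl5 and the enzyme Ido1, had a median of 0.59.

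**Figure D3:**
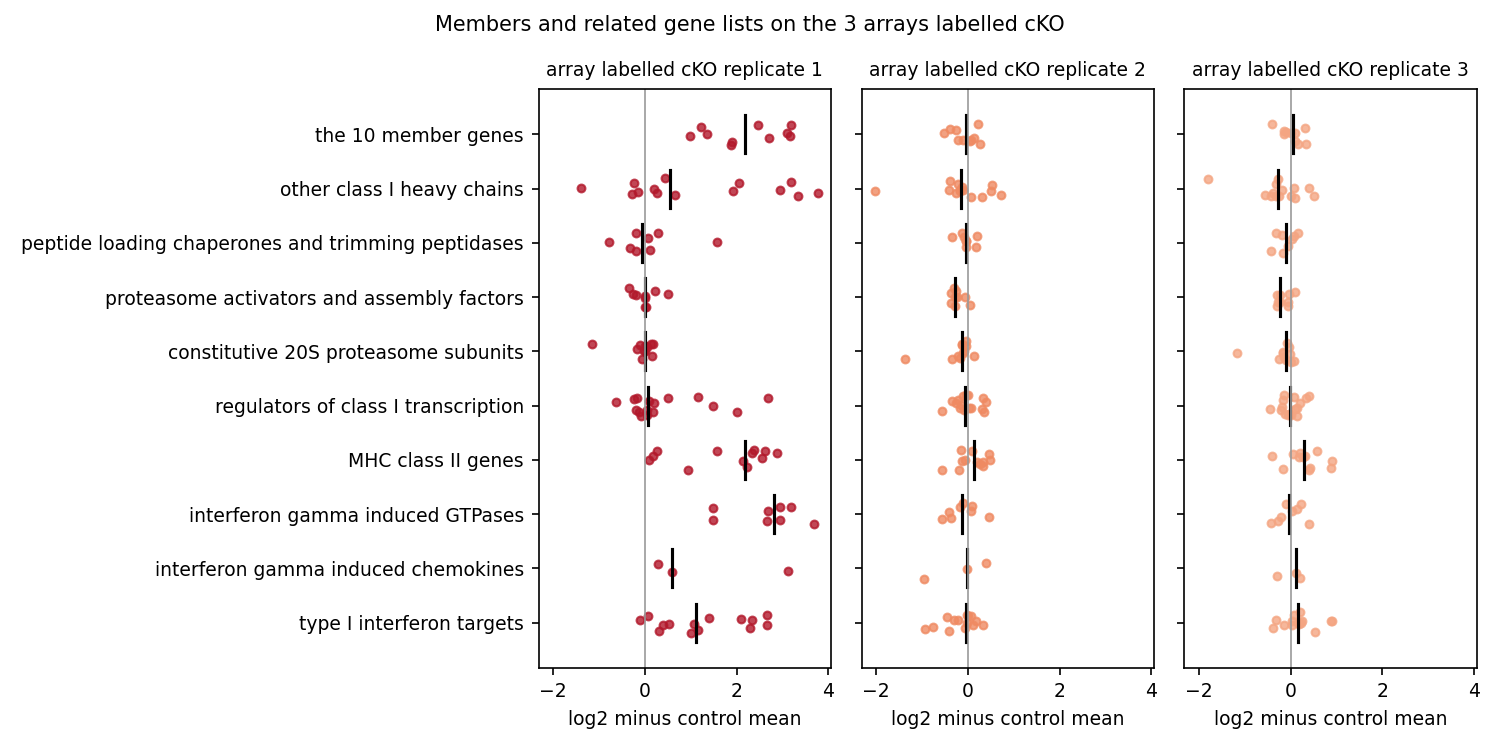
Log2 signal minus the control mean (x axis) of the 10 genes and of each companion list (y axis), with 1 panel per cKO array, 1 point per gene at its brightest tested probe and a black bar at the median. On cKO replicate 1 the median of the 10 genes is 2.19, that of the GTPases 2.82 and that of class II 2.18, and the constitutive 20S median is -0.01.

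8 of the 10 genes lie in the MHC region of chromosome 17, between Tapbp and H2-T23 in RefSeq order, and B2m and Psmb10 lie on chromosomes 2 and 8. The median of the neighbours outside the H2 family was near the control mean on cKO replicate 1. Each gene is read at its brightest tested probe. Of the 69 tested neighbours that are neither members nor H2 genes, 1 was at least 1 log2 unit above the control mean there, Aif1, a macrophage gene at 1.07, and their median was 0.02. With any tested probe counted, C4b, a complement gene, was high too: 2 of its probes were 2.32 and 2.18 above the control mean, and its brightest 0.14. Of the 14 tested other H2 genes in the interval, 10 were that high, with a median of 2.28. Of the 8 members in it, 7 were, with a median of 2.59. Both members outside the interval were also high there, B2m by 1.35 and Psmb10 by 1.89.

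**Figure D4:**
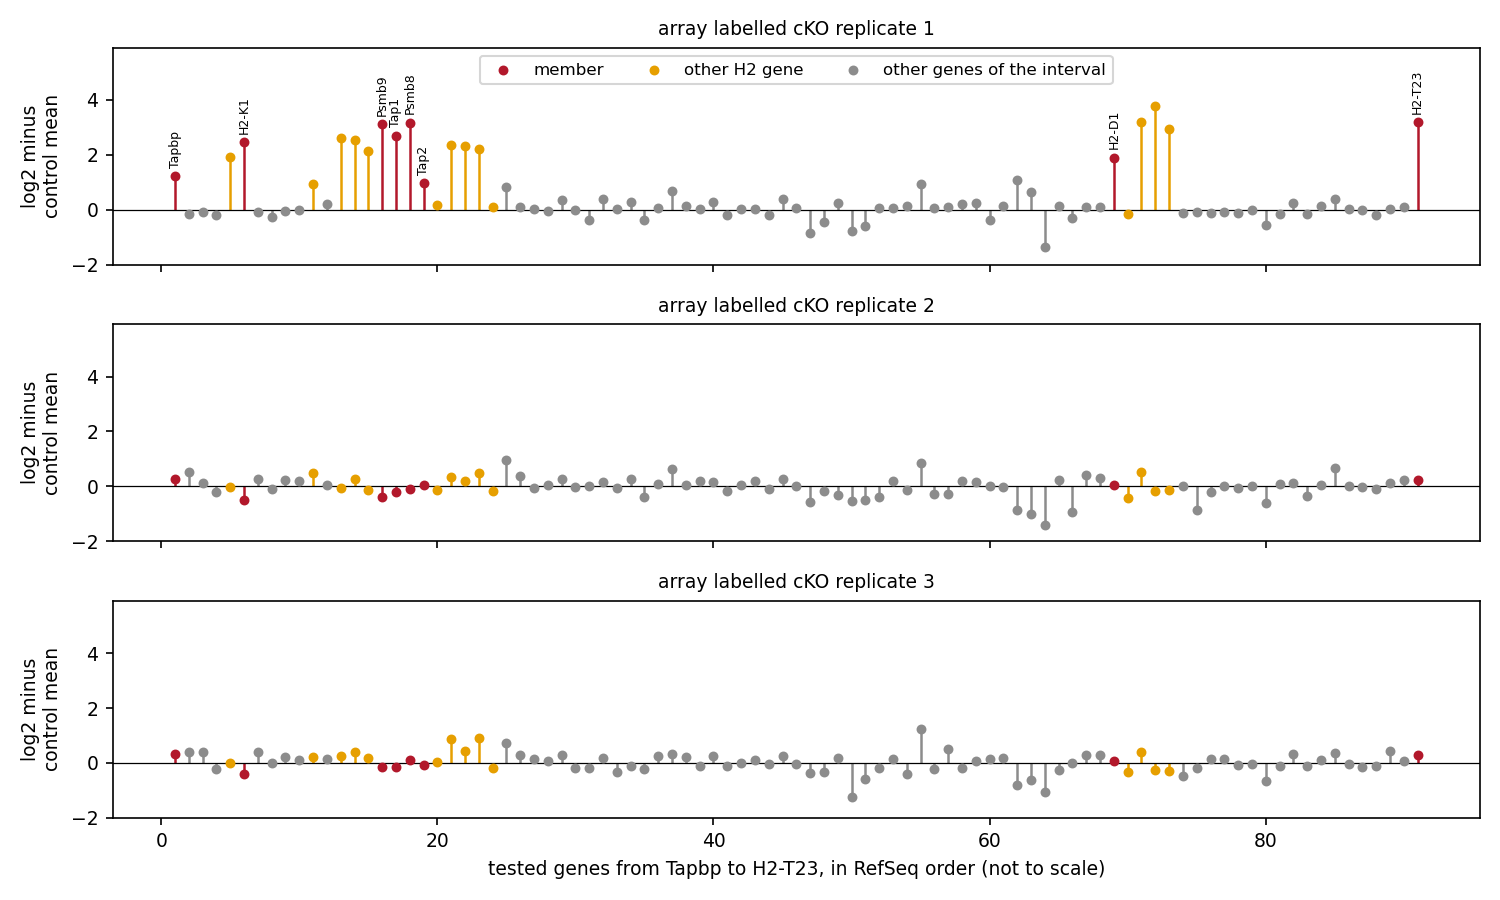
Log2 signal minus the control mean (y axis) of tested genes in RefSeq order between Tapbp and H2-T23 (x axis, order and not distance), with 1 panel per cKO array. Members are red, other H2 genes orange and all other genes grey. On cKO replicate 1 members and H2 genes have medians of 2.59 and 2.28 among neighbours with a median of 0.02.

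The genes outside the group whose 6-array profile was closest to the mean profile of the members were named by their root mean square distance in log2 units, over 6 arrays. The nearest were Batf2, an interferon-induced transcription factor, at 0.07, and H2-DMb1, which helps load class II, at 0.08. H2-K2 followed at 0.12, Samhd1, a nucleotide hydrolase, at 0.16, and Ube2l6, which conjugates the ubiquitin-like protein ISG15, at 0.17. Ly6a at 0.19, Adgrg5 at 0.20 and Oasl2 at 0.22 completed the 8 closest. 1 array carries most of each profile, so the distances rank likeness on these 6 arrays only. Of the 95 genes behind the 127 probes that stood out on cKO replicate 1, 9 were members, 33 were on the pathway lists and 53 were on neither.

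Markers of other cell types moved on some of the same arrays. The summed signal of the 6 tested pan-leukocyte genes was 10476, 6333 and 6516 on the cKO arrays, against 5973 to 6169.7 on the control arrays, so cKO replicate 1 was highest. Within that list Cd52 was 1.41 and Coro1a 0.85 above the control mean on cKO replicate 1. Ptprc, which defines leukocytes, was detected on no array. Of 14 T cell markers 4 were tested, with summed signals of 7331, 7269 and 7434 on the cKO arrays, against 4892 to 7638 on the control arrays, which overlap. Cd8b1, at log2 12.77, 12.79 and 12.82 on the cKO arrays, against 12.66, 12.19 and 12.85 on the control arrays, makes up most of that sum, which therefore says little about the other T cell genes. Cd3g was 1.48 above the control mean on cKO replicate 1, Cd3e was detected on 2 arrays, and Cd4 and Cd8a on none. Nkg7, a cytotoxic cell gene, was 1.68 above the control mean there, while Prf1, the only other tested gene of its list, was 0.005 above it. The 12 tested macrophage markers summed to 19827, 13739 and 15108 on the cKO arrays, against 15179 to 20940.4 on the control arrays. In that list Fcgr1 was 1.31 above the control mean on cKO replicate 1, while Cd68 fell by 1.13 in the limma test (adjusted p = 0.00565) and by 1.27 without cKO replicate 1.

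The 2 tested lymph node stroma genes summed to 3434, 1196 and 1294 on the cKO arrays, against 728 to 937 on the control arrays. Ccl21a, a chemokine of lymphatic tissue, rose by 1.35 (adjusted p = 0.0152 in limma) and by 1.62 without cKO replicate 1, and Ccl19 was 2.18 above the control mean on cKO replicate 1. The call for Ccl21a was lost without cKO replicate 2 (adjusted p = 0.0598), cKO replicate 3 (0.0629) or control replicate 2 (0.0572). The 3 tested B cell markers summed to 1662, 1629 and 1484 on the cKO arrays, against 1929.9 to 2359 on the control arrays. Of them Ighm fell by 0.71 (limma adjusted p = 0.0223), and Igkc and Cd79b differed by 0.26 and -0.01, neither of which passed. Adrenal cortex markers summed to 72951, 77921 and 70753 on the cKO arrays, against 68576 to 83934 on the control arrays, and endothelial markers to 8917, 11033 and 11249, against 9399 to 10558. Neither list had a gene called by limma, with 0 of 7 tested cortex genes and 1 of 7 tested endothelial genes at an unadjusted p under 0.05. Fat markers were higher on all cKO arrays, at 52138, 79352 and 60628, against 24463 to 30438 on the control arrays. Of 5 tested fat genes 4 were called, against 6.98% of all genes. Cyp21a1 makes up most of the cortex sum and Cfd most of the fat sum. Chromaffin markers were at 56134, 61515 and 70382, against 34691 to 48828. Of 6 tested chromaffin genes 1 was called, Pnmt (limma adjusted p = 0.0221), and 4 had an unadjusted p under 0.05. The part of these cell types in the class I levels was not tested.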

How the data were processed

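Total RNA from 6 adrenal samples, 3 labelled cKO and 3 control, was measured on Illumina mouse bead arrays. Per the file headers, the authors deposited a non-normalized intensity per probe with a detection p-value per array; between 30.7% and 33.4% of the deposited intensity values on an array were below 0, so the authors had subtracted background. The authors' deposited processed table holds linear intensity values, with array medians between 9.98 and 10.05 and the same ranking of probes as the non-normalized signals. It was used as an alternative, and no source used here names its normalization.

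The deposited intensities were corrected with normexp (background derived from detection p-values, offset 16), set to log2 and quantile normalized in limma 3.58.1 (R 4.3.3). Probes detected at p under 0.05 on at least 3 arrays were tested with lmFit and eBayes with an intensity trend. The p-values were adjusted by Benjamini-Hochberg over all 19210 tested probes, with a threshold of 0.05. A listed gene is shown by its brightest tested probe. Differences are cKO minus control. Older symbols were updated through RefSeq synonyms. The script was tested on simulated data.

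The members and lists were chosen with earlier results of these data known. The genes named come from the members, Gata6, called or brightest genes of each list, a fixed set of class I companions, and the 8 genes closest in profile. Not every gene of these sets is printed above. Pomp and Psmb4, the brightest of their lists, were 0.03 and -0.05 over the control mean on cKO replicate 1. H2-Q5, H2-Q6, H2-Q7, H2-Q8, H2-M3, Tapbpl, Ciita, Cxcl9, Igtp, Irgm2, Ccl5, Ido1, Ifit2, C4b, Aif1, Fcgr1, Cd3g, Cd79b, Igkc, Nkg7, Cd52, Cd53, Coro1a and Ccl19 were named after their values were seen. H2-Ab1, H2-Eb1 and H2-DMb2 were also named after their values were seen. Genes with clone or predicted names were passed over in the ranking by profile. With 3 arrays a group, the number of arrays limits the precision. Alternatives changed the scaling, offset, filter, variance model, array weights, deposited table, replicate block and the arrays included. 1 gene of the regulator list is not reported here.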

Additional observations from a re-analysis of the deposited data

How the results depend on the processing

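No result changed direction under the alternatives where it had passed the test. The number of probes called was 1247, and leaving out 1 array gave 480 (without cKO replicate 3) to 1213 (without cKO replicate 1). The number of pathway genes called outside the class I, loading and immunoproteasome group was 1. It was 3 under median scaling, 0 with a normexp offset of 50, 3 with array weights, and 0 to 1 on leaving out 1 array. The cause was not tested. Ifit2 was called under median scaling, a robust variance, array weights and without cKO replicate 2. In the main setting it differed by 0.80 and was not called (limma adjusted p = 0.0587). With the replicate number as a block the number of pathway genes called was 4, namely H2-M2, H2-Ab1, H2-Eb1 and Cd74, and 960 probes were called. Whether the numbers pair the samples could not be settled. Deviations of same-numbered arrays from their group means correlated at 0.04, 0.04 and -0.01, and not every array correlated best with its own number. Such deviations sum to 0 within each group, which holds their correlations near 0 on average, so low values do not exclude a pairing. The median difference of the member probes was 0.42 to 0.60 under the settings that kept all arrays, 0.64 over the 10 genes at 1 probe each, and -0.03 to 1.01 on leaving out 1 array, with the lowest value without cKO replicate 1. No member probe was called under any of these settings. Median scaling moved the median of all probes on cKO replicate 3 to 0.11, and cKO replicate 1 remained the highest array for all 18 member probes under each scaling. The slide as a block was not run, because the headers name no slides.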

Other observations

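1 interferon-inducible GTPase did not follow the others. Gbp2b, singled out after its values were seen, read 9.15, 4.61 and 4.80 on the cKO arrays, against 9.49, 8.71 and 9.83 on the control arrays. It was detected on 1 cKO array and on all 3 control arrays. Its difference of -3.16 did not pass the test (SE 1.04, limma adjusted p = 0.113). cKO replicates 2 and 3 were thus far below the control arrays for Gbp2b, while the list of 8 other GTPases had medians of -0.13 and -0.04 on those arrays. The call for Ighm, the heavy chain of IgM, had an adjusted p of 0.0418 without cKO replicate 1 and was lost without cKO replicate 2 (0.0705), cKO replicate 3 (0.0923) or control replicate 1 (0.0610). The 2 tested NK and cytotoxic genes summed to 137 to 282 on the cKO arrays, against 148 to 175 on the control arrays, and the 3 tested dendritic cell genes to 159 to 171, against 147 to 181. Aif1 had an adjusted p of 0.838 over all arrays and 0.0379 without cKO replicate 1, where it read lower on the cKO arrays.

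A level carried by 1 array of 3 has no replicate here. The deposited table holds 1 value per probe and array, with no bead-level spread, and probe targets were not used, so signals of related H2 genes cannot be separated.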
